A study of Mus musculus with 2 samples.

Results

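The forkhead, SOX, T-box, GATA and KLF families are transcription factors that bind DNA through a conserved domain and set cell identity in the early embryo. Here 74 genes of these families were examined in mouse embryoid bodies, out of 13697 genes named on the array. They were chosen by gene symbol (Fox, Sox, Tbx, Gata or Klf followed by a number, or by a letter and a number for Fox). Of the same families, 12 genes were left out by name: Foxa1, Foxa2, Foxa3, Foxc2, Sox7, Sox17, Tbx6, Gata1, Gata4, Gata6, Klf1 and Klf5. The 74 comprised 34 forkhead, 14 SOX, 11 T-box, 3 GATA and 12 KLF genes.

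Embryoid bodies are clusters of differentiating embryonic stem (ES) cells, and retinoic acid steers them towards neural fates. The first group of bodies came from Elongin A+/+ ES cells and the second from Elongin A-/- ES cells, which are labelled as lacking the large subunit of Elongin, a complex that speeds elongation by RNA polymerase II. All bodies received 2 µM retinoic acid for 4 days in medium with serum and the N2 supplement, so the treatment was common to both groups and no untreated array was used here. There was 1 array per genotype. No difference was therefore tested, there is no error between cultures, and effects of genotype, of the ES line, of the culture and of the array cannot be told apart. Whether each line came from 1 clone was not given in the sources used here. The arrays carried 32440 probes each, and 76 of these measured the 74 genes.

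Intensities are given after quantile normalisation and have no physical unit. A value below 1.03, the array median, was treated as below the floor, and a gene below the floor on 1 array has only a bound, written "at least". Differences are on the log2 scale, the Elongin A-/- array minus the Elongin A+/+ array. Probes of the same gene disagreed with each other by an SD of 0.43 in the log2 difference over 224 genes with several probes above the floor, and this is the only measure of error here. The probe of Elongin A itself (Eloa) read 3.87 on the Elongin A+/+ array and 3.57 on the Elongin A-/- array. The labels were not checked by it, because its place relative to the deleted part was not given in the sources used here. Of neuronal markers, 8 of 10 were above the floor on both arrays, and of neural progenitor markers 7 of 8, while 7529 of all 13697 named genes were.

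SOX factors bend DNA through an HMG box and usually act with a partner factor; the SoxB1 group maintains neural progenitors. Forkhead factors use a winged-helix domain, and their roles run from mesoderm patterning to cell cycle and insulin signalling. T-box factors pattern mesoderm, heart and limb. GATA factors use zinc fingers to direct blood, heart and gut lineages, and KLF factors bind GC-rich and CACCC sequences in promoters.

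Of the 74 genes, 52 were measured, that is, above the floor on at least 1 array, and 22 were below it on both. Among the 52, 8 were at least 2-fold higher on the Elongin A-/- array (15.4%), against 6.76% of the 9568 measured genes. Another 2 were at least 2-fold lower (3.85%), against 5.97% of measured genes. The higher genes were Sox18, Foxd1, Sox6, Sox9, Foxb1, Foxc1, Gata5 and Foxm1, and the lower ones were Sox1 and Gata3. The median difference of the 52 was 0.07 (95% binomial interval over members -0.17 to 0.38), and that of all measured genes was -0.02. Of the 52 differences, 13 are bounds with only the Elongin A-/- value above the floor, and 6 with only the Elongin A+/+ value. Among the 33 members above the floor on both arrays the median was -0.11 (-0.37 to 0.38), and among all such genes it was -0.02. With the values as deposited, 10 members were higher and 2 lower, while the background moved to 8.36% higher and 4.69% lower.

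Most of the higher genes were dim. Of the 8, Sox18, Sox6, Foxb1, Foxc1 and Gata5 were below the floor on the Elongin A+/+ array and are bounds, and Foxm1 lay just above it there. Among the 33 members above the floor on both arrays, 3 were higher (9.09%), against 5.23% of the 7529 such genes, and 1 was lower, against 4.66%. By the brighter of the 2 values, 29 members were under 4, and 6 of these were at least 2-fold apart (20.7%), against 15.6% of all genes in that range. Of 14 members from 4 to 16, 3 were apart (21.4%), against 16.9%. Of 9 members at 16 or more, only Gata3 was apart (11.1%), against 5.83%. With so few members in each range, these shares are near their background.

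**Figure D1:**
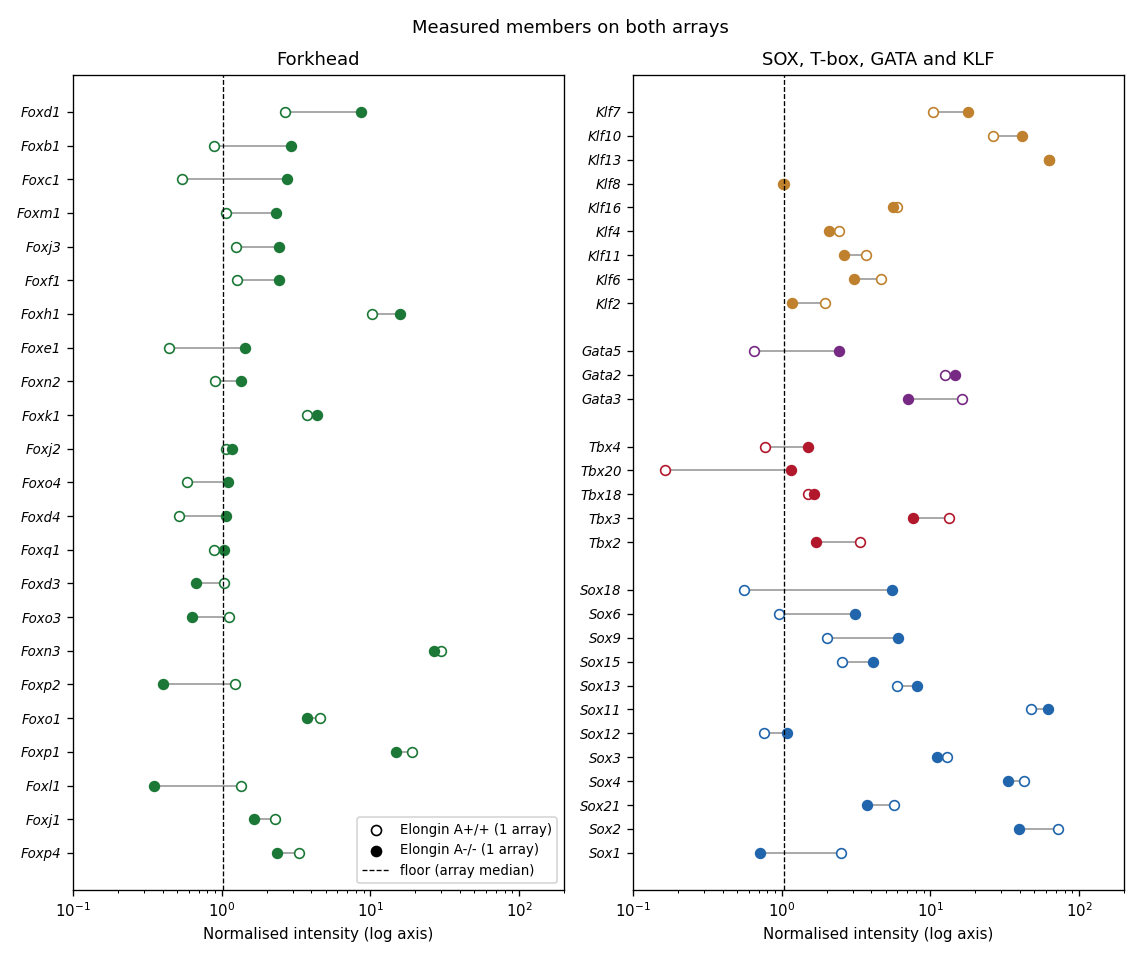
Normalised intensity (log axis) of the 52 measured members, with an open circle for the Elongin A+/+ array, a filled circle for the Elongin A-/- array and a dashed line at the floor of 1.03. Within each family the genes are ordered by their difference with values under the floor set to it, but the circles show the values before that. As drawn, Sox18, Tbx20 and Foxc1 are among the pairs set widest apart, while Klf13 (62.6 and 63.0) overlaps.

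**Figure D2:**
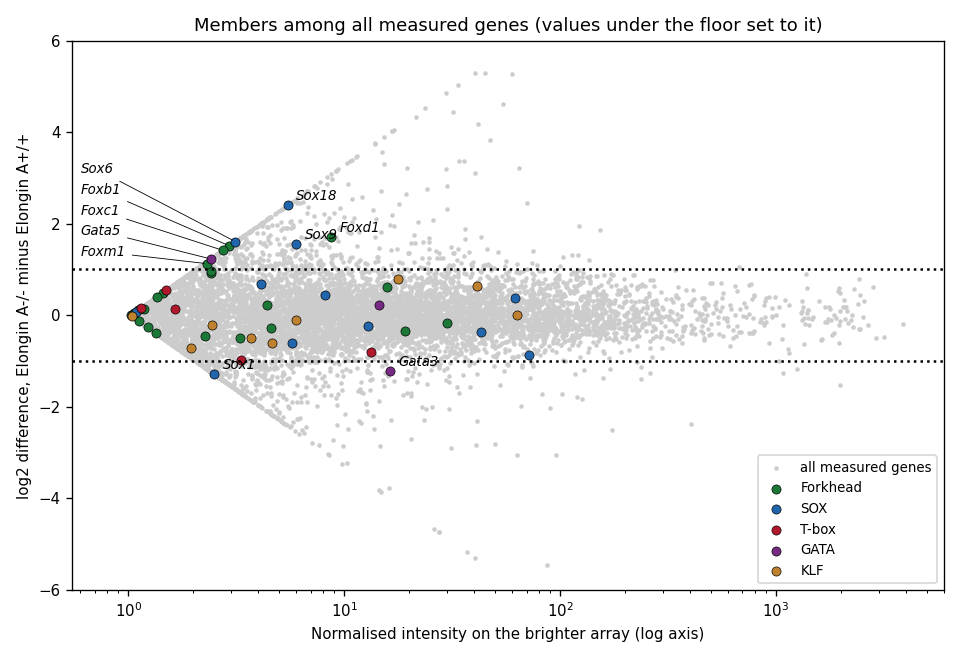
Log2 difference against the intensity on the brighter array (log axis) for all 9568 measured genes (grey) and the 52 members (coloured by family), with dotted lines at 2-fold. Points on the slanting edges are bounds, because a value under the floor was set to the floor, so a dim gene cannot lie far from 0.

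The sequence just upstream of 5 of the 10 genes that differed by 2-fold is shown because these are the ones with exactly 1 start in the RefSeq promoter table (GRCm38.p6). The other 5, Foxm1, Foxb1, Sox9, Sox18 and Sox6, are not shown. Each run holds the 250 bases before the start, 5′ to 3′ on the gene's strand, in lower case. Capitals mark matches, on either strand, to GGGCGG, the GC box bound by KLF and SP factors. Foxc1 is at chr13:31806396-31806645 (+), Foxd1 at chr13:98353995-98354244 (+) and Gata5 at chr2:180334680-180334929 (-), all 3 higher on the Elongin A-/- array. Gata3 is at chr2:9878601-9878850 (-) and Sox1 at chr8:12395269-12395518 (+), both lower.
Foxc1 upstream region: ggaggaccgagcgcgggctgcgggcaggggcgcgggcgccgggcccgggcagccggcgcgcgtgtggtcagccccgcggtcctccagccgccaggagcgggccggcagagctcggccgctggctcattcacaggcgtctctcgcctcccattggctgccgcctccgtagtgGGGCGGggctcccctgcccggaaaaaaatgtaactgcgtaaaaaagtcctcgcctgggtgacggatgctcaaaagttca
Foxd1 upstream region: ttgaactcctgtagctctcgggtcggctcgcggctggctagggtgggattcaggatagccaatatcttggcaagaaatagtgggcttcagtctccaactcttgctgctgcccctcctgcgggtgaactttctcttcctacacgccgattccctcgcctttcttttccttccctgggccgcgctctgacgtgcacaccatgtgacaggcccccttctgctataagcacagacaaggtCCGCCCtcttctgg
Gata5 upstream region: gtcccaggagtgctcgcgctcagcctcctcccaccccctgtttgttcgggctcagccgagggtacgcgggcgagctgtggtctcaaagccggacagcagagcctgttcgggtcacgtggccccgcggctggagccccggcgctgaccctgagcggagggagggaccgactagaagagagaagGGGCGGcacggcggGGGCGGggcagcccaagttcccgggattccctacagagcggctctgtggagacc
Gata3 upstream region: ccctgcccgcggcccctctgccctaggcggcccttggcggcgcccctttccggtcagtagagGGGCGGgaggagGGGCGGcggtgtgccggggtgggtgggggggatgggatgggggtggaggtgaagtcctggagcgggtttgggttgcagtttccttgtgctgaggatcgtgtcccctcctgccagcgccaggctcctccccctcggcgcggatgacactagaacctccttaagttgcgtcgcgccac
Sox1 upstream region: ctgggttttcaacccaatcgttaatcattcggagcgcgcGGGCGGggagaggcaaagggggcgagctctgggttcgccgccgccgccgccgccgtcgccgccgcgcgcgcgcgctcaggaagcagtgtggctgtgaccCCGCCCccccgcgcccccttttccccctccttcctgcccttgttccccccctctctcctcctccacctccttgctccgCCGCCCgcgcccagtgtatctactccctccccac

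All 5 regions held a GC box, with 1 in Foxc1 and Foxd1, 2 in Gata5 and Gata3 and 3 in Sox1, so genes on either side of the comparison carried it. GC content was 70.8% in Foxc1, 57.2% in Foxd1, 70.0% in Gata5 and in Gata3, and 71.2% in Sox1. Over the 63 windows that the table holds for 52 of the 74 genes, 68.3% held the GC box, against 32.7% of all 32851 windows of this length. The median GC content was 62.0% in the members' windows and 52.4% in all windows. The other motifs searched on both strands were AGATAA for GATA (4.76% of members' windows, 9.99% of all), ACAATG or ACAAAG for SOX (22.2% and 25.2%) and TGTTTAC or TGTTTGC for forkhead (4.76% and 7.29%). GGTGTGA for T-box was in 1.59% of members' windows and 3.33% of all, and TATAAA, the TATA box, in 6.35% and 12.4%. None of these other motifs was in the 5 regions shown. A match is a string of letters and does not show binding.

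Of 14 SOX genes 12 were measured, with 3 at least 2-fold higher and 1 lower, and a median difference of 0.23 (95% interval over members -0.61 to 1.57). The 3 higher genes were Sox18, Sox6 and Sox9, and the lower one was Sox1. The other 3 measured SoxB genes had differences of -0.87, -0.61 and -0.23, which did not pass 2-fold. Sox1, the earliest SoxB1 marker of neural plate, read 2.50 on the Elongin A+/+ array and 0.712 on the Elongin A-/- array, at least 2.43-fold lower. Sox1 lies on chromosome 8, where the median of 522 measured genes was 0.43, and its difference was -1.72 with chromosome medians removed. Sox2, which holds progenitors in both ES cells and neural tissue, read 72.2 and 39.5, a difference of -0.87. Its direction was the same in all 12 settings tried, from -0.88 to -0.79, although it stayed within 2-fold. Several of those settings could not change the value, since Sox2 has 1 probe and was above every floor. Sox3, the third SoxB1 factor, read 12.9 and 11.01, which is less than the disagreement between probes. Sox21, a SoxB2 repressor that promotes exit from the progenitor state, read 5.71 and 3.75.

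SoxC factors act later, in newly born neurons, and they did not move together. Sox4 read 42.9 on the Elongin A+/+ array and 33.2 on the Elongin A-/- array, Sox11 read 47.4 and 61.6, and Sox12 read 0.759 and 1.08. The differences of Sox4 and Sox11 were smaller than the probe SD, and Sox12 is a bound. The summed intensity of the 3 SoxB1 probes was 87.6 and 51.2, while that of the 3 SoxC probes was 91.1 and 95.9.

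Sox18, a SoxF factor of blood and lymphatic endothelium, was the member furthest apart. It read 0.557 on the Elongin A+/+ array and 5.49 on the Elongin A-/- array, at least 5.35-fold higher. The left-out SoxF genes lay on the same side, with Sox7 at 1.25 and 14.9 and Sox17 at 5.71 and 10.6. Endothelial markers differed in the same direction: 9 of the 11 on the array were measured, all 9 were higher, 7 of them by at least 2-fold, and their summed intensity was 16.02 and 172. Cdh5 and Tie1, which define endothelium, were below the floor on both arrays, and Kdr read 2.23 and 54.4. The part of these cells in the value of Sox18 was not tested, and in bulk RNA more cells of a type and more RNA per cell cannot be told apart.

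Sox6 and Sox9 were the other SOX genes at least 2-fold higher. Sox6, a SoxD factor of cartilage and glial precursors, read 0.960 on the Elongin A+/+ array and 3.13 on the Elongin A-/- array, at least 3.05-fold. Its SoxD relative Sox13 read 5.97 and 8.11, a difference of 0.44. Sox9, a SoxE factor of cartilage, neural crest and glial progenitors, read 2.03 and 6.01, 2.96-fold. Sox9 lies on chromosome 11, where the median of all 803 measured genes was 0.41, and its difference was 1.15 with chromosome medians removed. Its relative Sox8 stayed under the floor on both. Sox15, a SoxG factor of ES cells and muscle precursors, read 2.56 and 4.13 and also lies on chromosome 11, and Sox30, a germ cell factor, was below the floor on both arrays.

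**Figure D3:**
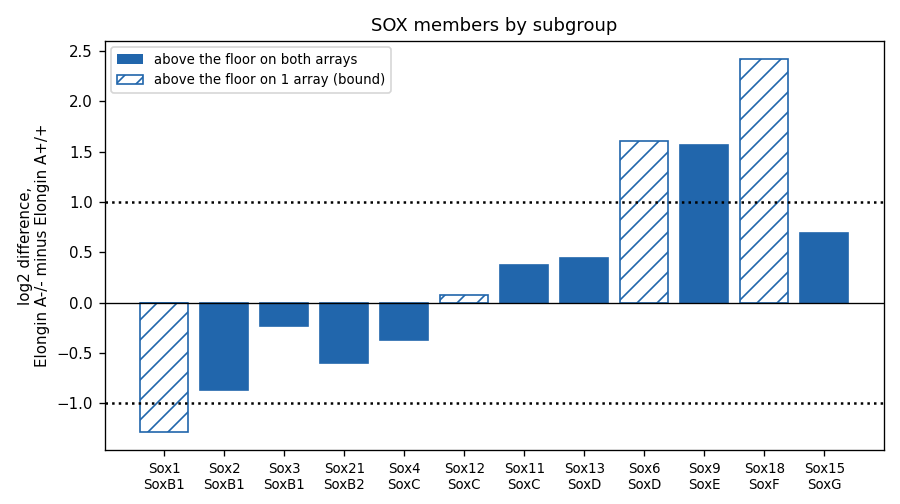
Log2 difference (Elongin A-/- minus Elongin A+/+, 1 array each) of the 12 measured SOX genes, ordered by subgroup; hatched bars are bounds, with 1 value at the floor, and dotted lines mark 2-fold. The 4 SoxB bars lie below 0, and the bars of Sox6, Sox13, Sox9, Sox18 and Sox15 lie above it.

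Of 7 measured partners of SOX proteins, none was 2-fold apart and the median was 0.28, against -0.02 over all measured genes. Pax6, which binds enhancers with Sox2, read 9.32 and 12.9, and Pou3f4, a neural POU factor, read 2.13 and 3.61. Pou5f1, the partner of Sox2 in ES cells, read 1.70 and 0.927, a bound of -0.72. Neural progenitor markers were mixed, with 3 of 8 at least 2-fold lower (Olig3, Fabp7 and Neurog2) and none at least 2-fold higher. Hes5, Pax6 and Olig2 (a bound) lay on the higher side within 2-fold. The summed intensity was 170 and 157, of which Hes5 alone made up 75.6 and 125. Among neuronal markers 5 of 9 measured were at least 2-fold lower, with a summed intensity of 412 and 243. The part of these cells in the SoxB values was not tested.

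Forkhead genes included 4 that were at least 2-fold higher among 23 measured (17.4%, against 6.76% of all measured genes). None were 2-fold lower, against 5.97%. The median was 0.10 (95% interval over members -0.17 to 0.62), which is the bound of Foxo4. Of 6 measured genes in groups B, C, D and E, 3 were higher and the median was 0.95, with an interval over members of -0.00 to 1.70. Foxd1, a factor of kidney stroma and retina, read 2.68 on the Elongin A+/+ array and 8.71 on the Elongin A-/- array, 3.25-fold, with both values above the floor. Foxc1, a mesenchyme factor that also acts in vessels, read 0.538 and 2.74, at least 2.67-fold. Foxb1, a factor of the developing diencephalon and spinal cord, read 0.884 and 2.94, at least 2.86-fold. The other 3 measured are bounds that did not reach 2-fold at this floor: Foxd3, of neural crest and ES cells, read 1.03 and 0.671, Foxe1, of thyroid, 0.440 and 1.44, and Foxd4 0.518 and 1.07. With no floor Foxe1 and Foxd4 passed 2-fold, at 1.71 and 1.04.

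Foxc2, the left-out relative of Foxc1, read 13.1 and 43.0. Markers of mesenchyme differed in the same direction as Foxd1 and Foxc1 in part, with 3 of 7 at least 2-fold higher (Col1a1, Col3a1 and Dcn) and none lower. Their summed intensity was 68.9 and 186 over the 7 markers, of which Col3a1 alone made up 41.8 and 152. Col1a2 (19.5 and 17.2) and Lum (1.73 and 0.394) were not higher. Lum was below the floor on the Elongin A-/- array. The part of mesenchymal cells in the forkhead values was not tested.

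Of 4 measured genes in groups F, H, L and Q, none reached 2-fold at this floor. Foxf1, a factor of splanchnic mesoderm, read 1.27 on the Elongin A+/+ array and 2.42 on the Elongin A-/- array, a difference of 0.93. It passed 2-fold with the values as deposited (1.03) and was 0.49 with chromosome medians removed, since it lies on chromosome 8, where the median of 522 genes was 0.43. Foxh1, the SMAD partner of nodal signalling, read 10.2 and 15.7. Foxl1, of gut mesenchyme, read 1.34 and 0.350, and Foxq1, an epithelial factor, 0.888 and 1.04. These last 2 differences, -0.39 and 0.01, are bounds, and Foxl1 was -1.94 with no floor.

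Among groups J, K, M and N the cell cycle factor Foxm1 was at least 2-fold higher and the 6 other measured genes did not reach 2-fold. Foxm1, which drives mitotic genes, read 1.07 on the Elongin A+/+ array and 2.33 on the Elongin A-/- array, 2.18-fold. Measured genes of its chromosome, 6, had a median of -0.26 (518 genes), and its difference fell within 2-fold (0.68) with a pseudocount at the floor. Foxj3 read 1.24 and 2.43, a difference of 0.96 that was 1.06 with the values as deposited. Foxj1, the master factor of motile cilia, read 2.27 and 1.66, Foxk1 read 3.76 and 4.40, Foxn2 0.901 and 1.35, Foxn3 29.99 and 26.6, and Foxj2 1.07 and 1.18. Foxk1 had a second probe, which stayed under the floor (0.754 and 0.489).

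FOXO factors, which insulin and AKT signalling keep out of the nucleus, did not reach 2-fold. Foxo1 read 4.58 on the Elongin A+/+ array and 3.77 on the Elongin A-/- array, Foxo3 read 1.12 and 0.629, and Foxo4 read 0.585 and 1.10. Only Foxo1 was above the floor on both, and the bounds of Foxo3 and Foxo4 became -0.83 and 0.92 with no floor. Of 10 measured regulators of FOXO, 1 was at least 2-fold higher and none lower, with a median of -0.00. That gene was Sgk1, a kinase that phosphorylates FOXO factors, which read 3.67 and 16.7. Akt1 (15.99 and 14.8) and Akt2 (7.09 and 7.64) were close. Of the FOXP factors, Foxp1 read 19.1 and 15.0, Foxp4 3.30 and 2.35, and Foxp2 1.23 and 0.404. Foxp1 (-0.35) was within the probe SD. Foxp2 is a bound, which was -0.26 at this floor and -1.61 with no floor, and Foxp1 and Foxp2 both lie on chromosome 6.

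The 3 GATA genes went apart from each other. Gata3, a factor of T cells, trophoblast and several neuron types, read 16.4 on the Elongin A+/+ array and 7.05 on the Elongin A-/- array, 2.32-fold lower. It was the only member at least 2-fold apart in all 12 settings, from -1.22 to -1.08. Foxb1, Foxc1, Gata5 and Sox6 were so in the 11 settings that measured them, and Sox1 in 10. Several settings could not change the value of Gata3, which has 1 probe, lies on chromosome 2 and was above every floor. Gata2, which maintains blood progenitors and also marks spinal interneurons, read 12.5 and 14.5, a difference of 0.22. Gata5, of heart and gut endoderm, read 0.652 and 2.41, at least 2.35-fold higher. Of 2 measured endoderm markers, Ttr was at least 2-fold higher and Afp at least 2-fold lower, both bounds. Among the left-out GATA genes, Gata6 read 2.65 and 4.40, and Gata1 and Gata4 were below the floor on both arrays.

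Some partners of GATA factors were higher on the Elongin A-/- array. Of 7 measured, 3 passed 2-fold on the higher side and none on the lower, and the median was 0.89. Tal1, which works with Gata2 in blood and endothelial progenitors, read 0.876 and 10.8, Lmo2, the bridging protein of that complex, 4.13 and 16.3, and Zfpm2, a cofactor of cardiac GATA factors, 0.790 and 3.22. Ldb1, another bridging protein, read 23.0 and 22.5, and Lyl1 read 1.17 and 0.359, a bound of -0.19. Tal1 and Lmo2 are also blood markers here, of which 4 of 6 measured were at least 2-fold higher, with a summed intensity of 9.85 and 44.2. The blood marker Spi1 was on the lower side (1.76 and 0.345, a bound of -0.77). Alas2 and Ptprc, which mark red and white blood cells, were below the floor on both arrays. The part of blood progenitors in the GATA values was not tested.

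Of 11 T-box genes 6 were under the floor on both arrays, and none of the 5 measured reached 2-fold at this floor (median 0.13). Tbx2 and Tbx3, repressors that act in limb, heart and eye, were on the lower side. Tbx2 read 3.34 on the Elongin A+/+ array and 1.69 on the Elongin A-/- array, just within 2-fold at -0.98. It lies on chromosome 11 and was -1.40 with chromosome medians removed. Tbx3, also an ES cell factor, read 13.3 and 7.65, a difference of -0.80. Tbx18, of epicardium, read 1.49 and 1.64, Tbx4, of hindlimb and lung, 0.770 and 1.498, and Tbx20, of heart and motor neurons, 0.163 and 1.15. Tbx4 and Tbx20 are bounds, and Tbx20 was 2.82 with no floor. The relatives Eomes, Tbr1 and Mga were below the floor on both arrays, as was Tbx6, which is not a member.

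No KLF gene was 2-fold apart among 9 measured, against 6.76% higher and 5.97% lower over all measured genes. The median was -0.11 (95% interval over members -0.60 to 0.65). Klf10, induced by TGF-beta, read 26.2 on the Elongin A+/+ array and 41.0 on the Elongin A-/- array, and Klf7, a neuronal factor, read 10.4 and 17.8. These 2 were the furthest on the higher side, at 0.65 and 0.78. Klf2, of endothelium and ES cells, was the furthest on the lower side, at 1.94 and 1.18 (-0.72). Its other probe read 1.44 and 0.831, so both probes were lower. Klf2 lies on chromosome 8 and passed 2-fold with chromosome medians removed (-1.15). Klf6, an early response factor, read 4.64 and 3.05, and Klf11, a Sin3A-binding repressor, 3.71 and 2.63. Klf4, a reprogramming factor, read 2.43 and 2.09, Klf16 5.99 and 5.56, Klf13 62.6 and 63.0, and Klf8 1.04 and 1.02.

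SP factors bind the same GC boxes as KLF factors, and 4 of 5 were measured. Sp5, a target of WNT signalling, read 14.7 and 2.04, at least 2-fold lower, and Sp6 read 2.10 and 4.24, just past 2-fold higher. Sp4 (3.31 and 1.75) and Sp8 (7.25 and 6.86) were within 2-fold. The corepressors Ctbp1, Ctbp2, Sin3a, Sin3b, Hdac1 and Hdac2 were all within 2-fold, with a median of -0.16. Klf5, left out here, read 5.71 and 1.53.

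Grouped by role across families, no group of members moved in 1 direction throughout. Of 10 measured mesoderm, heart and limb factors, 3 were at least 2-fold higher (Foxd1, Foxc1 and Gata5) and none lower, and their median was 0.35 (95% interval over members -0.80 to 1.42). Of 7 factors of vessels and blood progenitors, 2 were higher (Sox18 and Foxc1, 28.6%) and none lower, with a median of 0.22. In that group Klf2, Klf4 and Foxo1 were on the lower side. Of 10 neural factors, 1 was higher (Foxb1) and 1 lower (Sox1), with a median of -0.25 (-0.87 to 0.78). Of 6 factors of ES cells and the early embryo, none was 2-fold apart and the median was -0.47 (-0.87 to 0.62). Sox2, Tbx3, Klf2 and Klf4 were on the lower side, Foxh1 on the higher, and Foxd3 at -0.00 on neither. Pluripotency markers went both ways, with 1 of 5 measured at least 2-fold higher (Dppa4) and 1 lower (Zfp42). Among 16 broadly expressed factors, 1 was higher (Foxm1, 6.25%, near the background), and the median was -0.05. Of 3 measured factors of neural crest, cartilage and glia, 2 were higher (Sox6 and Sox9) and none lower. Among the genes 2-fold apart in these groups, Foxc1, Gata5, Sox18, Foxb1, Sox6 and Sox1 are bounds. Some genes count in more than 1 of these groups, Foxc1 and Sox2 among them.

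The 22 genes below the floor on both arrays were Foxb2, Foxd2, Foxe3, Foxf2, Foxi1, Foxi2, Foxl2, Foxn1, Foxn4, Foxp3, Foxs1, Klf12, Klf15, Klf17, Sox8, Sox30, Tbx1, Tbx5, Tbx10, Tbx15, Tbx19 and Tbx21. Germ cell and epithelial factors made up 7 of them, namely Foxe3, Foxi1, Foxi2, Foxl2, Foxn1, Klf17 and Sox30. A value below the array median does not show that a gene was silent. Over all named genes, 69.9% were measured, and 70.3% of the members were.

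Most directions did not depend on scaling. Of the 52 measured members, 48 had the same sign under all 4 scalings, the exceptions being Foxd3, Foxd4, Foxq1 and Klf16. Each of the exceptions was within 0.11 of 0 at the main setting. The scalings use the same 2 arrays and moved values little, so members far from 0 could not change sign. The floor mattered more. With the floor raised to the 75th percentile, 19 members were left, none of them 2-fold higher, and Sox18, Foxd1 and Sox9 were 0.08, 0.74 and 0.21.

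**Figure D4:**
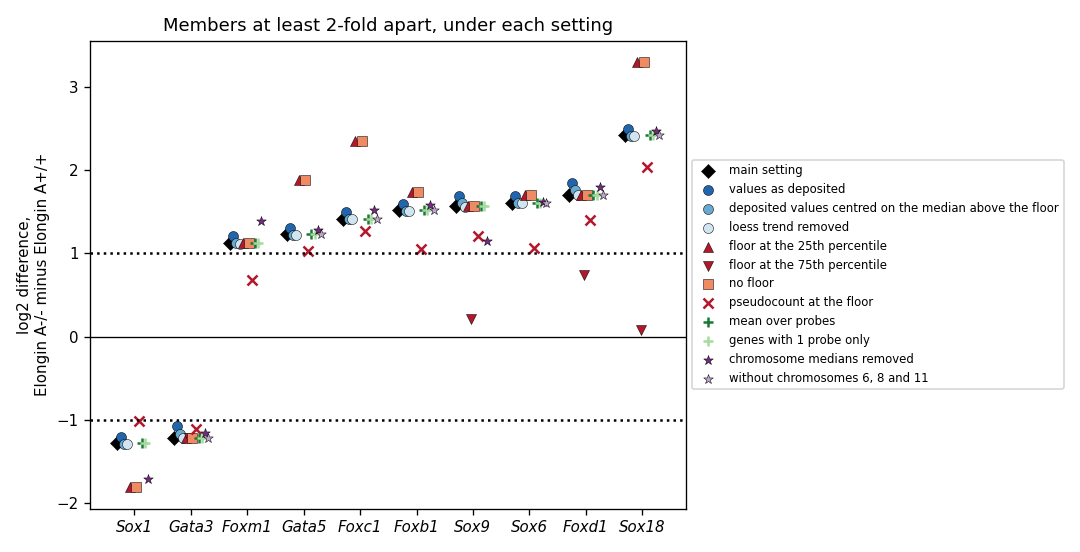
Log2 difference of the 10 members at least 2-fold apart, under the main setting (black diamond) and each of 11 other settings that measured them; dotted lines mark 2-fold. Gata3 stays between -1.22 and -1.08, while Sox18 runs from 0.08 (a bound) with the floor at the 75th percentile to 3.30 with no floor.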

How the data were processed

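Expression was measured on 2 arrays, 1 per genotype. Per the labels' protocols, RNA was labelled with digoxigenin and detected by chemiluminescence. The intensities deposited by the authors are linear, with medians of 1.02 and 1.03, which points to scaling by the authors; their scaling, background correction and filters were not given in the sources used here. Only probes with exactly 1 gene symbol in the platform annotation were used (14253 probes). All 74 members matched RefSeq gene identifiers (GRCm38.p6). The arrays were quantile normalised on the log2 scale, a gene with several probes was taken as its probe with the highest mean log2 value, and values under the floor of 1.03 were set to it. Intervals of medians cover the spread between genes only. Genes with a 2-fold difference were counted with no p-value. The number of arrays limits the precision. In the report, all members at least 2-fold apart are named with both values. Of the partner lists, mainly genes at least 2-fold apart are named. Of the marker lists, only some of the genes at least 2-fold apart are named. Among endothelial markers that is Kdr alone, and among neuronal markers none. Kdr and the others named (Cdh5, Tie1, Alas2, Ptprc, Hes5, Olig2, Spi1, Lyl1 and the close ones) were chosen with their values seen. Members and lists were chosen with earlier results of these data known. The calculation was tested on simulated data. Python 3.11.15, numpy 2.4.6, pandas 2.3.3 and scipy 1.17.1 were used. Other settings tried were 3 scalings, 4 treatments of the floor, 2 of probes, 2 of chromosomes and 2 folds.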

Additional observations from a re-analysis of the deposited data

How the results depend on the processing

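No paired analysis was possible because each genotype has 1 array and no replicate number pairs them. The 8 members at least 2-fold higher were 14 with no floor, 0 with the floor at the 75th percentile, 14 at 1.5-fold and 3 at 3-fold. None of the 8 was bright enough to be 2-fold above the floor at the 75th percentile. The same 8 genes were among those called with the values as deposited, with both other scalings, with chromosome medians removed and with a floor at the 25th percentile. The 2 lower members were 4 with the floor at the 25th percentile, 1 with it at the 75th, 6 with no floor, 4 with chromosome medians removed (Klf2 and Tbx2 joined), 1 without chromosomes 6, 8 and 11, 8 at 1.5-fold and 0 at 3-fold. The median of all members stayed between 0.00 and 0.17 in the settings tried. It was -0.11 among the 33 members above the floor on both arrays at the main setting. With the floor at the 75th percentile the family medians were -0.50 for GATA (2 genes left) and -0.80 for T-box (1 gene, Tbx3). They were -0.03 for SOX (8 genes) and 0.33 for KLF (4 genes). Each was of the other sign than at the main setting. Those of SOX and KLF lie inside their 95% intervals over members. Those of GATA and T-box rest on unchanged values of the genes left, so they had to lie inside the range of their members. Of 101 single values of the 10 members under other settings, 86 moved by less than the probe SD of 0.43, 15 by more, and none changed sign. Each of the 10 has 1 probe, so the 2 probe settings returned the main value. Leaving out chromosomes 6, 8 and 11 also returned it for the genes that remained. Such values could not move and count among the 86. Signal over background is unknown, since no detection calls were used here.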

Other observations

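Members that neighbour each other in RefSeq order did not always share a direction. Tbx2 and Tbx4, adjacent on chromosome 11, had differences of -0.98 and 0.54, the second a bound. With chromosome medians removed these were -1.40 and 0.13. On chromosome 13 Foxq1, Foxf2 and Foxc1 are consecutive protein-coding genes, and of these Foxc1 alone was at least 2-fold higher (0.538 and 2.74), Foxq1 read 0.888 and 1.04, and Foxf2 stayed under the floor (0.562 and 0.831). On chromosome 8 Foxf1, the left-out Foxc2 and Foxl1 lie within 1 protein-coding gene of each other, with differences of 0.93, 1.71 and -0.39. On chromosome 5 Tbx3 had -0.80 and its neighbour Tbx5 stayed under the floor (0.891 and 0.520).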
